A study of Homo sapiens with 10 samples.

Results

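The genes described here encode parts of the spliceosome and regulators of splicing, read on gene-level exon arrays of DLD-1 cells, a human colorectal cancer cell line. The list named 53 genes by symbol, and its members were found through array probes annotated to that symbol alone. Of these, 43 had such a probe, 7 had only probes shared with other genes and 3 had none. SNRPA1 lay below the filter on low signal, so 42 members were tested among 11199 features. The tested cells carried a short hairpin RNA against LMNB1, the gene of lamin B1, a filament protein under the nuclear membrane. Construct V2LHS_62673 gave the single cell clones 8, 9 and 12, each with 1 array, and construct V2LHS_62675 gave 1 clone, number 2, with 3 arrays. The controls were wild type DLD-1 cells with 1 array, grown without puromycin, and 3 single cell clones carrying the empty vector, which like the knockdown clones were kept under puromycin. Each hairpin clone stands for a single cell that was grown up, and V2LHS_62675 is known from 1 such clone only. The samples' titles call the empty vector arrays biological replicates and give them no clone number. In the titles the arrays of V2LHS_62675 are numbered clone 12 and also called biological replicates. The descriptions of the V2LHS_62675 arrays and the design text call them repeats of clone 2, and this second reading was used. The 3 arrays were averaged, giving 4 knockdown and 4 control samples.

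Splicing removes introns from pre-mRNA. The U1 particle binds the 5′ splice site and U2AF with the U2 particle binds the 3′ splice site and the branch point. The U4/U6.U5 tri-snRNP then joins, and the Prp19 complex enters as the assembly is remodelled into its active form. Each of the U1, U2, U4 and U5 particles is built on a ring of Sm proteins. SR proteins bind exons and mostly favour their inclusion, while many hnRNP proteins oppose it. The values here are RNA levels of the genes for these factors and do not measure splicing itself.

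The RefSeq promoter windows of the 4 members on which the comparisons below turn are shown first, from 250 bases before to 50 bases after the annotated start, in build GRCh38.p14. SF3A1, at chr22:30356845-30357144 on the minus strand, is the member whose knockdown and control clones did not overlap. PRPF19, at chr11:60906536-60906835 on the minus strand, SNRNP40, at chr1:31296739-31297038 on the minus strand, and SNRPC, at chr6:34757255-34757554 on the plus strand, are the members that stood highest on 2 arrays of clone 2. Capitals mark CCGGAA, the core that ETS family factors bind, and CCAAT, the box that NF-Y binds, each on either strand.
SF3A1: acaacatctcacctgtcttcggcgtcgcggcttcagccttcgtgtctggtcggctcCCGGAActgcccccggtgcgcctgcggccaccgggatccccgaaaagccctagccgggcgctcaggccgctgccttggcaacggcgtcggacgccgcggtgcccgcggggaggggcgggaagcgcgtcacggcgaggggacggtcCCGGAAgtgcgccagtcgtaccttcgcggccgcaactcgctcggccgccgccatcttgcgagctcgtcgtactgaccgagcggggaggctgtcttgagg
PRPF19: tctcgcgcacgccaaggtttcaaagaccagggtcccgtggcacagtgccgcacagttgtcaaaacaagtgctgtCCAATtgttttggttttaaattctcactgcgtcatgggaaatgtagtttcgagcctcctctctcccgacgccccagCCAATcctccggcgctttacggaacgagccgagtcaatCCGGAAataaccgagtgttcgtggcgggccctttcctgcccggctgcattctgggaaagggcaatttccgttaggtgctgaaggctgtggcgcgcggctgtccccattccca
SNRNP40: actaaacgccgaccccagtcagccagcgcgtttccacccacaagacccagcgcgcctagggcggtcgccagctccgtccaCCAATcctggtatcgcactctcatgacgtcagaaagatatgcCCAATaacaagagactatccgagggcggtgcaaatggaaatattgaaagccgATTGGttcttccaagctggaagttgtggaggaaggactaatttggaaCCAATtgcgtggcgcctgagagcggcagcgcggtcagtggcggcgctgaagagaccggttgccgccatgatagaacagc
SNRPC: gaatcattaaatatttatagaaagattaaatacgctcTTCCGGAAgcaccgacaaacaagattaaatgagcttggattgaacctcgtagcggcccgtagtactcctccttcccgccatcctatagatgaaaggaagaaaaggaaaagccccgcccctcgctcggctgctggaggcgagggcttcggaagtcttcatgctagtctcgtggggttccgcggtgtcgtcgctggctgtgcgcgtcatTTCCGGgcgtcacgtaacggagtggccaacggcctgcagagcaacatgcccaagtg
SF3A1 held 2 copies of CCGGAA and no CCAAT, and PRPF19 held 1 CCGGAA and 2 CCAAT. SNRNP40 held 4 CCAAT and no CCGGAA. SNRPC held 3 matches of CCGGAA, of which 2 overlap on opposite strands, and no CCAAT. Of the 37 tested members with a window, 18 (48.6%) held CCGGAA, against 2389 of the 9069 tested genes with one (26.3%) and 4815 of all 27305 windows (17.6%). CCAAT was present in 12 of the 37 (32.4%), against 3286 of 9069 tested genes (36.2%) and 9747 of all windows (35.7%). Both motifs were picked after the sequences and the array values had been seen, and a match of letters is a description of the window, not of binding.

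One array was unlike the rest, that of clone 8. Over all probes its correlation with the other 9 arrays was 0.915 to 0.926, where any 2 of those 9 reached 0.986 to 0.994. Its median was 7.62 log2 units, against 7.34 to 7.41. Results are therefore given with and without it. The probe for LMNB1, which by annotation also reads PCIF1, lay at 7.65 ± 0.14 log2 units in knockdown clones and 9.11 ± 0.30 in controls (mean ± SD, n = 4 each), and the groups did not overlap. All 10 colon epithelium markers, among them EPCAM, CDX1 and VIL1, were above the filter, at 6.48 to 12.83. Of the 4 leukocyte markers with a probe 2 were above it, and the levels of all 4 ran from 3.82 to 7.41, while 4 of the 6 fibroblast and endothelial markers were above it, with levels of 3.94 to 8.27. All samples are DLD-1 cells, so a marker above the filter does not show that leukocytes, fibroblasts or endothelial cells were present. What gave those signals was not tested. In such bulk samples a lower level from fewer expressing cells and from less RNA per cell cannot be told apart. Precision is limited by how few arrays there are.

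Among themselves the members were about as steady as other genes. Without clone 8, the median SD of a member over the other 7 samples was 0.13 log2 units, and the median over all features was also 0.13. The least steady were SNRNP40, with an SD of 0.41, SF3A1 with 0.33 and PRPF19 with 0.32, and the steadiest was SF3B3 with 0.04. Probe levels of members ran from 6.98 for SRSF10 to 12.52 for HNRNPA2B1, but levels of different probes cannot be compared. Set against the mean of the empty vector clones, the median member difference was 0.03 in clone 8, 0.08 in clone 9, 0.10 in clone 12, 0.10 in clone 2 and 0.14 in wild type cells. Each empty vector clone was set against the other 2, and its median was 0.06, 0.04 and -0.10, the last in the third clone. The medians of clones 9, 12 and 2 were thus no further from 0 than that of the third empty vector clone, and the wild type median was the highest. TRA2A in the third empty vector clone, at -0.53, was the only member to differ by over 0.5 within the empty vector clones, where 1.29%, 0.482% and 0.893% of features did so, in the same order of clones.

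**Figure D1:**
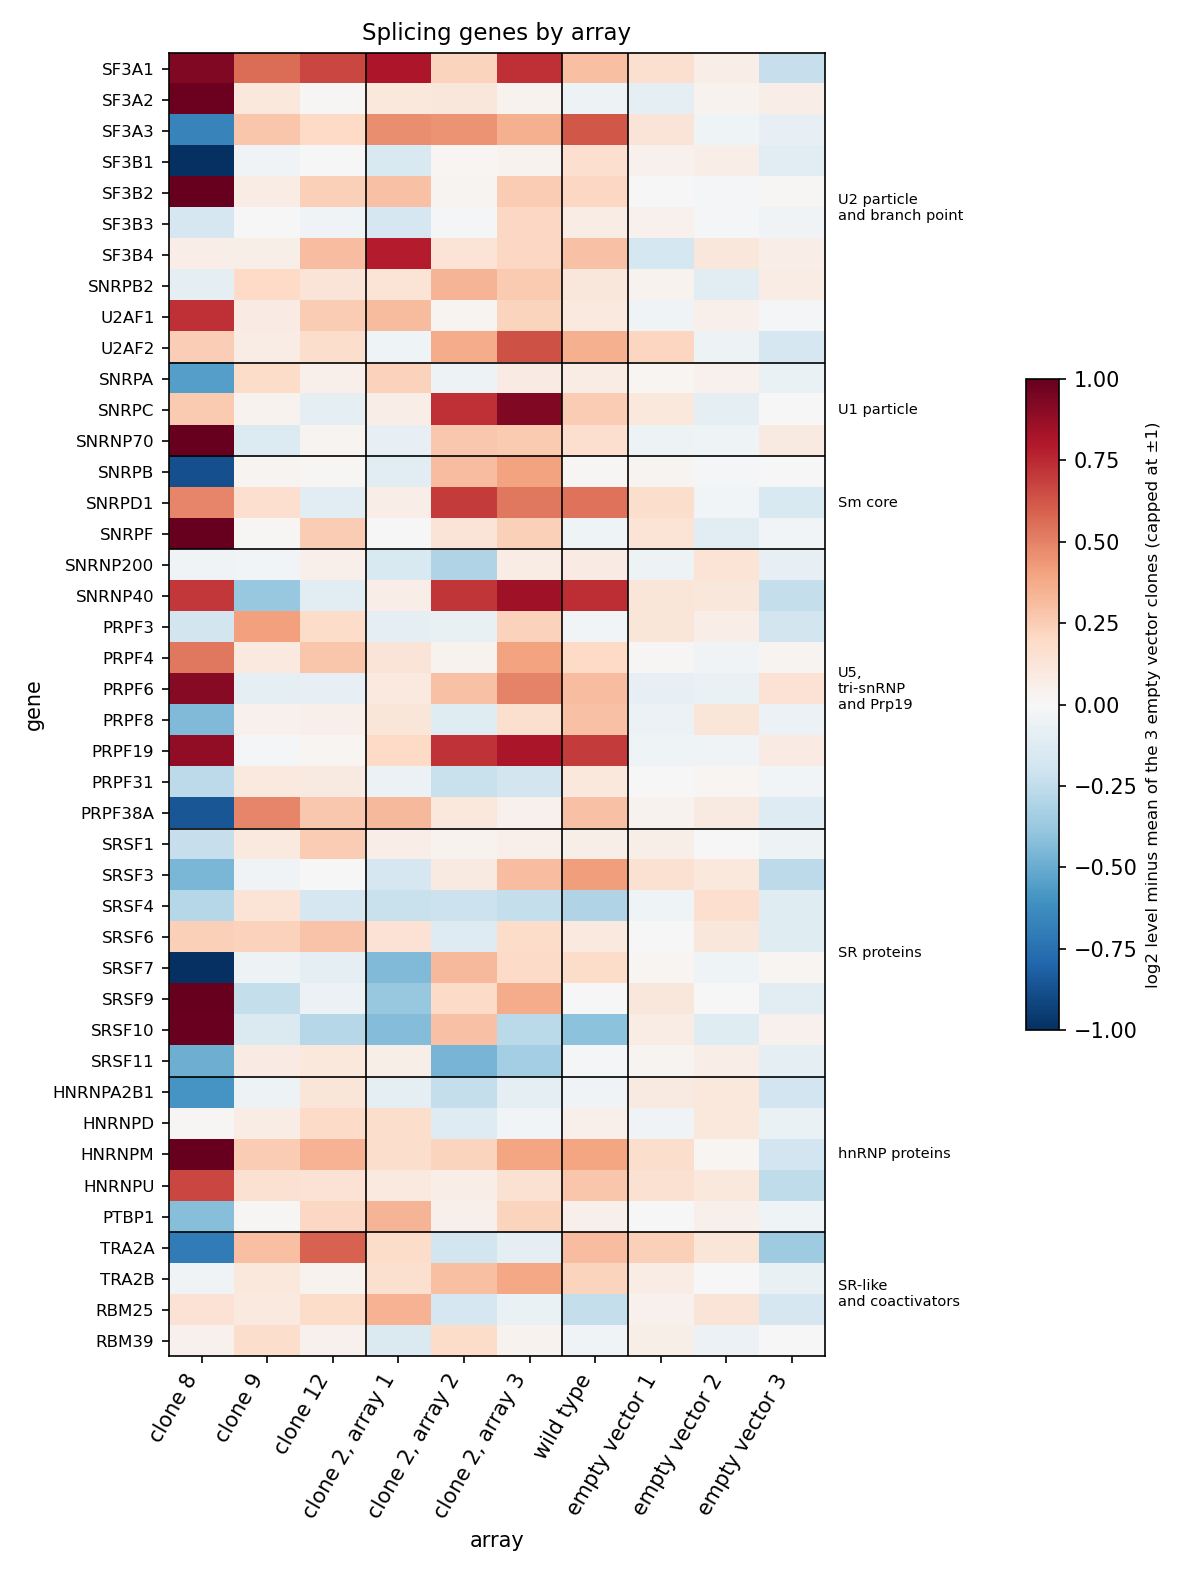
Log2 level of each of the 42 tested splicing genes (down the page, grouped by role) on each of the 10 arrays (across), as the difference from the mean of the 3 empty vector clones, with colours capped at 1 either way. SF3A1 is above 0 on every hairpin array, the column of clone 8 holds the deepest colours, and PRPF19, SNRNP40, SNRPC and SNRPD1 are deep on arrays 2 and 3 of clone 2 but not on array 1.

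The first question was which splicing genes differed between the 4 knockdown clones and the 4 controls. SF3A1, a subunit of the SF3a complex that binds U2 to the branch point, was the one member whose groups did not overlap. It lay at 9.39, 9.02 and 9.13 in clones 8, 9 and 12 and at 9.05 in clone 2, against 8.76 in wild type cells and 8.62, 8.53 and 8.23 in the empty vector clones. Every knockdown clone was above every control, but the arrays of clone 2 read 9.27, 8.68 and 9.19, and the second of them fell below wild type. The difference was 0.61 log2 units (SE 0.15, 95% interval 0.28 to 0.94) with an exact permutation p of 0.0286 (two-sided, n = 4 each), the smallest that 70 regroupings allow. Any gene without overlap has this p, so it adds nothing to the lack of overlap for which SF3A1 was named. Over all features, 179 (1.6%) were higher in every knockdown clone than in every control and 173 (1.54%) were lower, so 1 of 42 members higher and 0 lower is near that background. In limma the adjusted p of SF3A1 was 0.761, and 0 of 42 members and 0 of 11199 features (0.0%) passed 0.05. The targeted gene LMNB1, at -1.46 (SE 0.17), did not pass either (adjusted p = 0.0602 in limma). A count of 0 therefore does not show that the members were unchanged. At an unadjusted p under 0.05 there were 257 features (2.29%), SF3A1 being the 1 member among them.

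Without clone 8 the picture for SF3A1 was the same, at 9.06 ± 0.05 in clones 9, 12 and 2 (n = 3) and 8.53 ± 0.22 in controls (n = 4), a difference of 0.53 (SE 0.12, adjusted p = 0.639 in limma). SNRPB2, a protein of the U2 particle, then joined it as a member without overlap. Its levels were 10.34, 10.27 and 10.39 in clones 9, 12 and 2, against 10.25 in wild type cells and 10.17, 10.03 and 10.21 in the empty vector clones. The gap to the highest control was small, and clone 8 read 10.04, inside the control range. These 2 members stand against 388 features (3.46%) higher and 298 (2.66%) lower without overlap once clone 8 is left out. No member passed in limma without clone 8, as 0 features did (0.0%), with 725 features (6.47%) and 1 member, SF3A1, at an unadjusted p under 0.05.

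**Figure D2:**
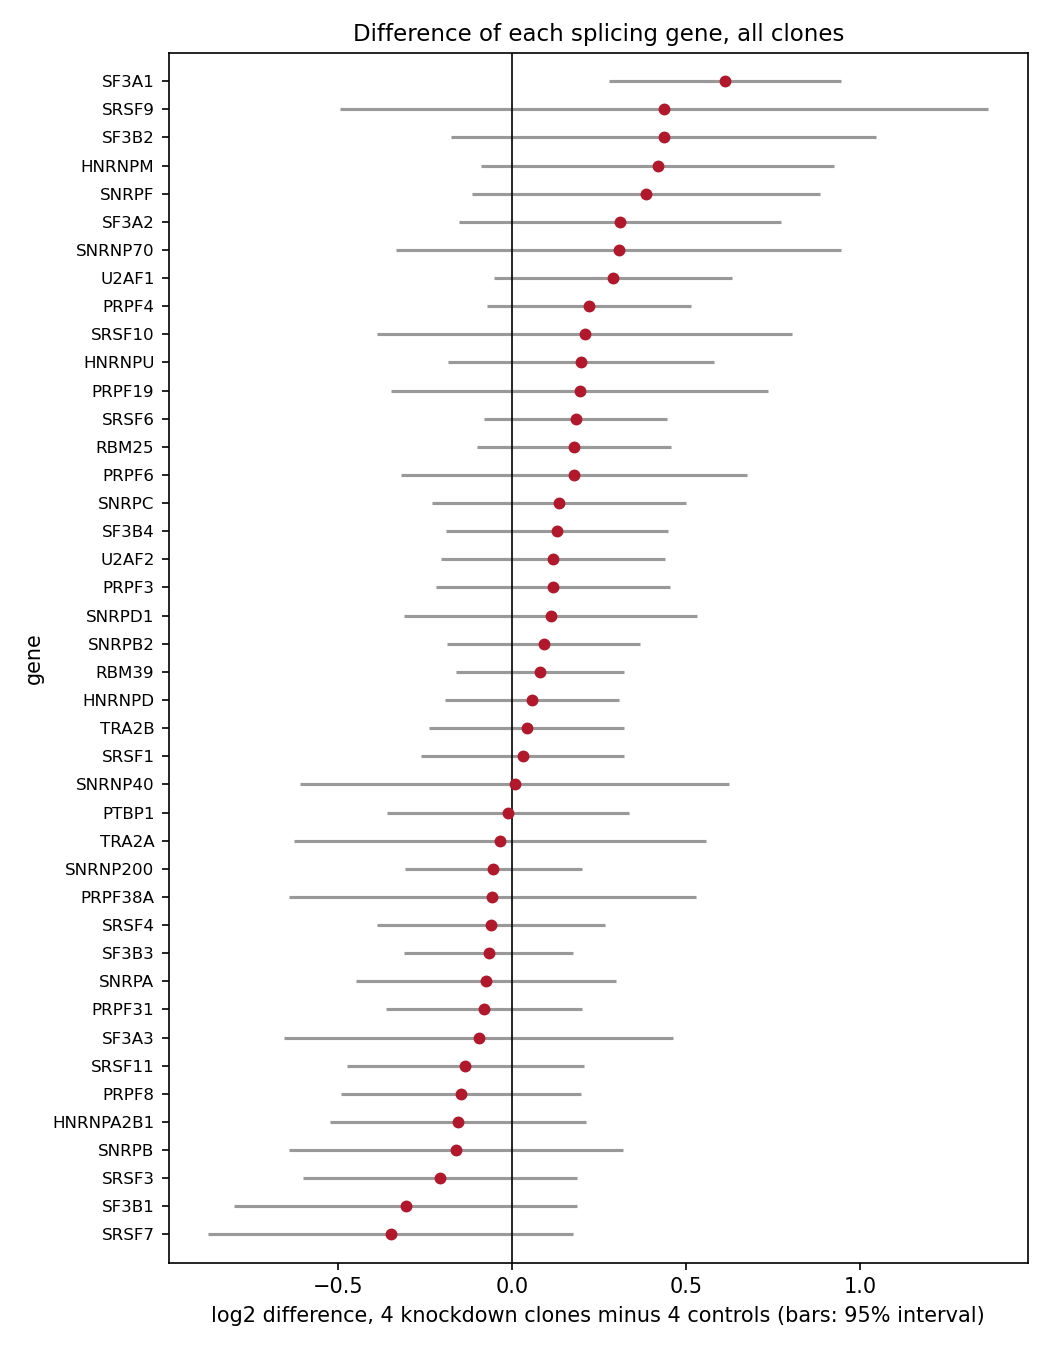
Difference of each tested splicing gene between the 4 knockdown clones and the 4 controls (log2 units, points) with its 95% interval from limma (bars), all clones included, sorted by size. The interval of SF3A1, 0.28 to 0.94, is the one that leaves out 0, and the widest belongs to SRSF9.

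Of the 10 tested genes of the U2 particle and branch point, 7 were higher and 3 lower in knockdown with a median of 0.12, and 0 passed. U2AF1, which reads the AG at the end of the intron, lay at 8.29 ± 0.29 in knockdown and 8.00 ± 0.06 in controls (SD, n = 4 each, exact permutation p = 0.0571). SF3B2, a subunit of SF3b, lay at 8.01 ± 0.64 and 7.58 ± 0.11, with clone 8 at 8.97 and the other knockdown clones at 7.60, 7.76 and 7.72. SF3B4, another SF3b subunit, averaged 9.51 ± 0.16 in knockdown and 9.38 ± 0.19 in controls. SF3B1, the SF3b subunit most often mutated in blood cancers, differed by -0.31 (SE 0.22, adjusted p = 0.761 in limma), and that lower mean came from clone 8 at 9.78, since clones 9, 12 and 2 read 10.75, 10.78 and 10.75 against controls of 10.67 to 10.94. The U1 particle had 2 of 3 genes higher, with a median of 0.13, and the Sm ring 2 of 3, with a median of 0.11. SNRPB, which encodes the Sm proteins B and B′, averaged 11.15 ± 0.49 in knockdown and 11.31 ± 0.02 in controls. Its mean was drawn down by clone 8 at 10.43, as the other knockdown clones lay at 11.33, 11.32 and 11.51.

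In the group of U5, tri-snRNP and Prp19 genes 5 of 9 were higher, with a median of 0.01. PRPF4, a protein of the U4/U6 particle, averaged 9.13 ± 0.18 in knockdown and 8.91 ± 0.10 in controls (SD, n = 4 each, exact permutation p = 0.0857). PRPF8, the scaffold at the heart of the spliceosome, and SNRNP200, the helicase that unwinds U4 from U6, differed by -0.15 (SE 0.15) and -0.06 (SE 0.11). The SR proteins split evenly, 4 of 8 higher, with a median of -0.02. SRSF1, a founding member of that family, differed by 0.03 (SE 0.13). Of the hnRNP proteins 3 of 5 were higher, with a median of 0.06. HNRNPM averaged 10.01 ± 0.46 in knockdown and 9.59 ± 0.25 in controls (exact permutation p = 0.143), while PTBP1, which represses many alternative exons, differed by -0.01 (SE 0.16). Of the SR-like proteins and coactivators 3 of 4 were higher, with a median of 0.06. Over all members 26 of 42 were higher, with a median of 0.08, beside 56.1% of all features, with a median of 0.04. Under median centring the members' median was 0.017 and under cyclic loess 0.14, so its size depended on the scaling.

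The constructs were next set against the empty vector clones separately, in a fit of the 4 groups. With all clones no member and no feature passed in any of these comparisons (0.0% each), and 358 (3.2%), 295 (2.63%) and 290 (2.59%) features had an unadjusted p under 0.05 for V2LHS_62673, clone 2 and wild type. SF3A1 was 9.18 ± 0.19 in the clones of V2LHS_62673 and 8.46 ± 0.20 in empty vector clones (SD, n = 3 each), a difference of 0.72 (SE 0.18, adjusted p = 0.741 in limma). Without clone 8 that difference was 0.61 (SE 0.12, adjusted p = 0.0456), and SF3A1 was the 1 member called among 115 features (1.03%). In clone 2 the difference of SF3A1 from the empty vector clones was 0.59 (SE 0.25, adjusted p = 1.00), and without clone 8 it had SE 0.15 and an adjusted p of 0.0636. The constructs differed from each other in SF3A1 by -0.03 without clone 8 (95% interval -0.38 to 0.33), an interval that still holds sizable differences either way. Wild type cells, with 1 array, read 0.30 above the empty vector clones. The 95% interval was -0.28 to 0.88 with all clones and -0.04 to 0.64 without clone 8. The SF3A1 call of V2LHS_62673 rests on 2 clones against 3 and ended under quantile normalization without clone 8 (0.63, adjusted p = 0.0698), where 0 of 42 members and 0.241% of features passed.

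TRA2A and PRPF38A also stood high in clones 9 and 12 without passing. TRA2A, an SR-like protein that binds exonic enhancers, read 9.85 and 10.14 there and 9.52 in clone 2, against 9.78, 9.67 and 9.20 in the empty vector clones. Clone 8 went the other way at 8.85, and the second probe of TRA2A gave another order, with 9.63 in clone 8 and 8.92 and 8.85 in clones 9 and 12 against 8.85, 9.08 and 8.76. The 2 probes thus disagree on clone 8, and on the second probe clones 9 and 12 lay inside the range of the empty vector clones. The first, which has the higher mean, was the probe tested. PRPF38A, a factor needed for the step to the active spliceosome, lay at 10.97 and 10.76 in clones 9 and 12 and at 9.64 in clone 8, against 10.52, 10.58 and 10.36. Without clone 8 its difference was 0.38 (SE 0.11, adjusted p = 0.126 in limma).

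Leaving out clone 8 let some members pass as higher than the empty vector clones in clone 2 and in wild type cells. Clone 8 is in neither comparison, so this changed the estimated spread and not the differences. Both comparisons use the same 3 empty vector clones, and both rest on 1 sample that is assumed to vary like the other groups. PRPF19, the ubiquitin ligase of the Prp19 complex, lay at 10.29 in clone 2, 10.40 in wild type cells and 9.66, 9.67 and 9.79 in the empty vector clones. Clones 9 and 12 sat with the empty vector clones at 9.69 and 9.72, whereas clone 8 read 10.60. Its difference from the empty vector clones was 0.58 in clone 2 (SE 0.12, adjusted p = 0.0269 in limma) and 0.70 in wild type cells (SE 0.12, adjusted p = 0.0173). SNRNP40, a WD40 repeat protein of the U5 particle, lay at 10.28 in clone 2 and 10.48 in wild type cells, against 9.86, 9.85 and 9.50. It was 9.35 and 9.63 in clones 9 and 12 and 10.44 in clone 8. The wild type difference, 0.74 (SE 0.17), passed with an adjusted p of 0.0404, and that of clone 2, 0.55 (SE 0.17), did not (adjusted p = 0.0999).

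SNRPC, the U1 protein that steadies pairing with the 5′ splice site, lay at 10.00 in clone 2 and 9.68 in wild type cells, against 9.53, 9.33 and 9.42 in empty vector clones. It passed in clone 2, at 0.57 (SE 0.13, adjusted p = 0.0367 in limma), and not in wild type cells, at 0.25 (SE 0.13, adjusted p = 0.306). SF3A3, the partner of SF3A1 in the SF3a complex, lay at 11.64 in clone 2 and 11.83 in wild type cells, against 11.34, 11.17 and 11.13. It passed in wild type cells, at 0.62 (SE 0.13, adjusted p = 0.0312), and not in clone 2, at 0.42 (SE 0.13, adjusted p = 0.0934). SNRPD1, a protein of the Sm ring, had 9.38 in clone 2 and 9.49 in wild type cells, against 9.13, 8.92 and 8.80, and passed in neither. In all, 2 of 42 members passed in clone 2 among 419 features (3.74%), and 3 of 42 in wild type cells among 403 (3.6%). All of these were higher, where 174 features (1.55%) passed higher in clone 2 and 190 (1.7%) in wild type. Under quantile normalization without clone 8, 0 members passed in clone 2 (2.54% of features), and PRPF19 and SF3A3 were the 2 that passed in wild type cells (1.8%).

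The constructs were also compared directly. Without clone 8, clone 2 was above clones 9 and 12 by 0.60 in SNRPC (SE 0.13, adjusted p = 0.0484 in limma), by 0.79 in SNRNP40 (SE 0.18, adjusted p = 0.0493) and by 0.58 in PRPF19 (SE 0.12, adjusted p = 0.0435). These 3 members passed among 241 features (2.15%), all 3 higher, where 105 features (0.938%) passed higher. With clone 8 included, no feature passed (0.0%), 0 members and 2.22% of features had an unadjusted p under 0.05, and the differences were 0.50, 0.47 and 0.28. The median member difference between the constructs was -0.03 with all clones and 0.01 without clone 8.

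**Figure D3:**
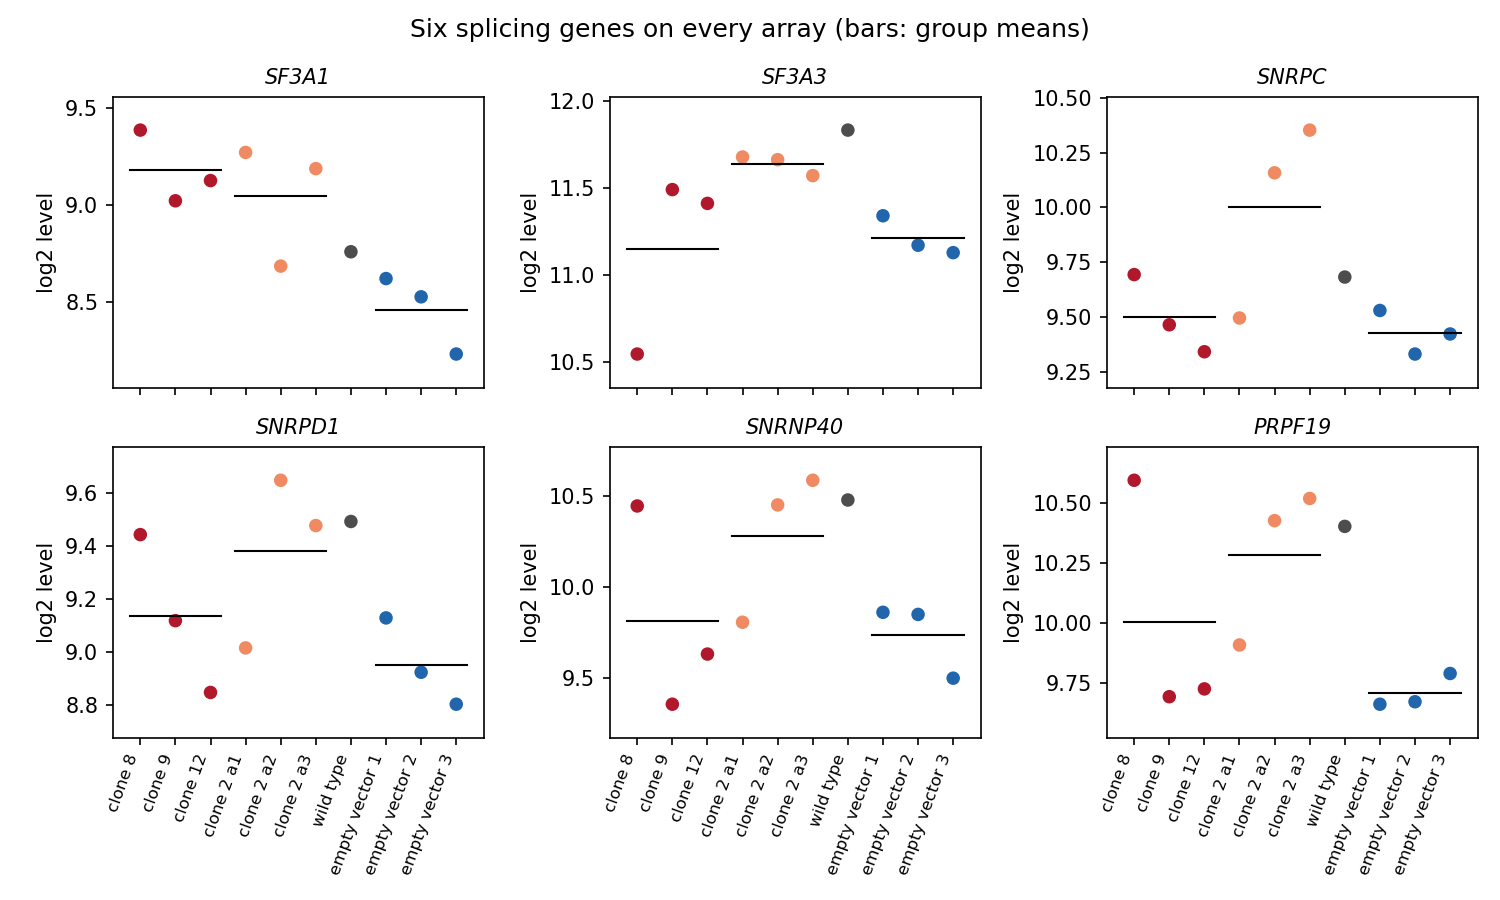
Log2 levels of SF3A1, SF3A3, SNRPC, SNRPD1, SNRNP40 and PRPF19 on every array (points), with the means of the V2LHS_62673 clones (dark red), the 3 arrays of clone 2 (orange) and the empty vector clones (blue) as bars and wild type cells in grey. Axes differ between panels and do not start at 0. For SNRPC, SNRPD1, SNRNP40 and PRPF19 arrays 2 and 3 of clone 2 lie high, and array 1 lies at or near the empty vector clones.

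The high level in clone 2 came from 2 of its 3 arrays. PRPF19 read 9.91, 10.43 and 10.52 on arrays 1, 2 and 3, SNRNP40 read 9.80, 10.45 and 10.58, and SNRPC read 9.50, 10.16 and 10.35. SNRPD1 read 9.02, 9.65 and 9.48. On array 1, SNRNP40, SNRPC and SNRPD1 were inside the range of the empty vector clones and PRPF19 was just above it. Array 1 differed from the mean of arrays 2 and 3 by over 0.5 in 8 members, 7 lower and 1 higher, beside 787 of all features (7.03%). The 7 lower ones were those 4 with U2AF2, SRSF7 and SRSF9, and the higher one was SF3B4, at 10.10 against 9.45 and 9.52. Array 2 differed from the other 2 in this way in 2 members (1.5% of features) and array 3 in 1 (1.3%). The median SD of the 3 arrays was 0.18 over the members and 0.12 over all features. Over the 3 empty vector clones it was 0.10 for both. In SNRPC, SNRNP40 and PRPF19 the SD of the arrays of clone 2 was 0.45, 0.42 and 0.33. The fit took the mean of these arrays as 1 value, so its SEs for comparisons with clone 2 leave this spread out. For such genes those SEs and p-values can be too small. With array 1 as well as clone 8 left out, 4 members passed in clone 2 against the empty vector clones, PRPF19, SNRPC, SNRNP40 and SNRPD1, among 1021 features (9.12%). With array 3 left out in its place, 0 passed among 273 features (2.44%), and with array 2 left out PRPF19 and SF3A1 passed among 398 (3.55%). Also without clone 8, the direct calls between constructs numbered 4 without array 1 (8.56% of features), of which SRSF11 was lower, and 0 without array 2 (1.26%) or array 3 (1.0%). Over all probes array 1 correlated with arrays 2 and 3 at 0.988 each, and they with each other at 0.994. Which label of these arrays is right was not tested.

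Clone 8 differed from the empty vector clones by over 0.5 in 22 of 42 members, near the 55.3% of all features that did so. Clone 9 did so in 1 member (2.85% of features), clone 12 in 2 (3.71%), and clone 2 (6.06%) and wild type cells (6.34%) in 4 each. Past 1 log2 unit clone 8 had 6 members, near the 15.7% of features, and 0 members were past it in clone 9 (0.277%), clone 12 (0.446%), clone 2 (0.634%) and wild type cells (0.473%). SRSF9, an SR protein, was at 11.84 in clone 8 and at 9.62, 9.80 and 9.92 in clones 9, 12 and 2, against 9.85 in wild type cells and 9.97, 9.85 and 9.75 in the empty vector clones. The other members past 1 log2 unit in clone 8 were SF3B2 (1.45), SNRNP70 of the U1 particle (1.35), HNRNPM (1.20) and the Sm gene SNRPF (1.11) on the higher side, and SRSF7 (-1.10) on the lower side. SRSF7, an SR protein that also links to mRNA export, read 9.16 in clone 8, against 10.44 in wild type cells and 10.28, 10.22 and 10.29 in the empty vector clones.

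The differences of clone 8 ran with the level of the probe. In 8 equal bins of wild type level the median over all features was 0.57 in the lowest bin and -0.81 in the highest. Across the 42 members the correlation of the difference with wild type level was -0.59, and across all features -0.57, as a description over genes that share 1 array. Of the 29 members in the highest 2 bins 11 were higher and 18 lower in clone 8, where 79.5% of features were lower. The median difference of these members was -0.17, against -0.62 over all features in those bins. Of the other 13 members 11 were higher and 2 lower, where 29.4% of features were lower. Their median was 0.91, against 0.38 over all features in the other bins. In both parts the members' median thus lay above that of features in the same bins, and the cause was not tested. In the highest bin 15 of 20 members were lower in clone 8, with a member median of -0.43, against -0.81 over all features. The largest differences of the 5 higher ones were those of PRPF19, at 0.89, SNRNP40, at 0.71, and HNRNPU, at 0.67.

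**Figure D4:**
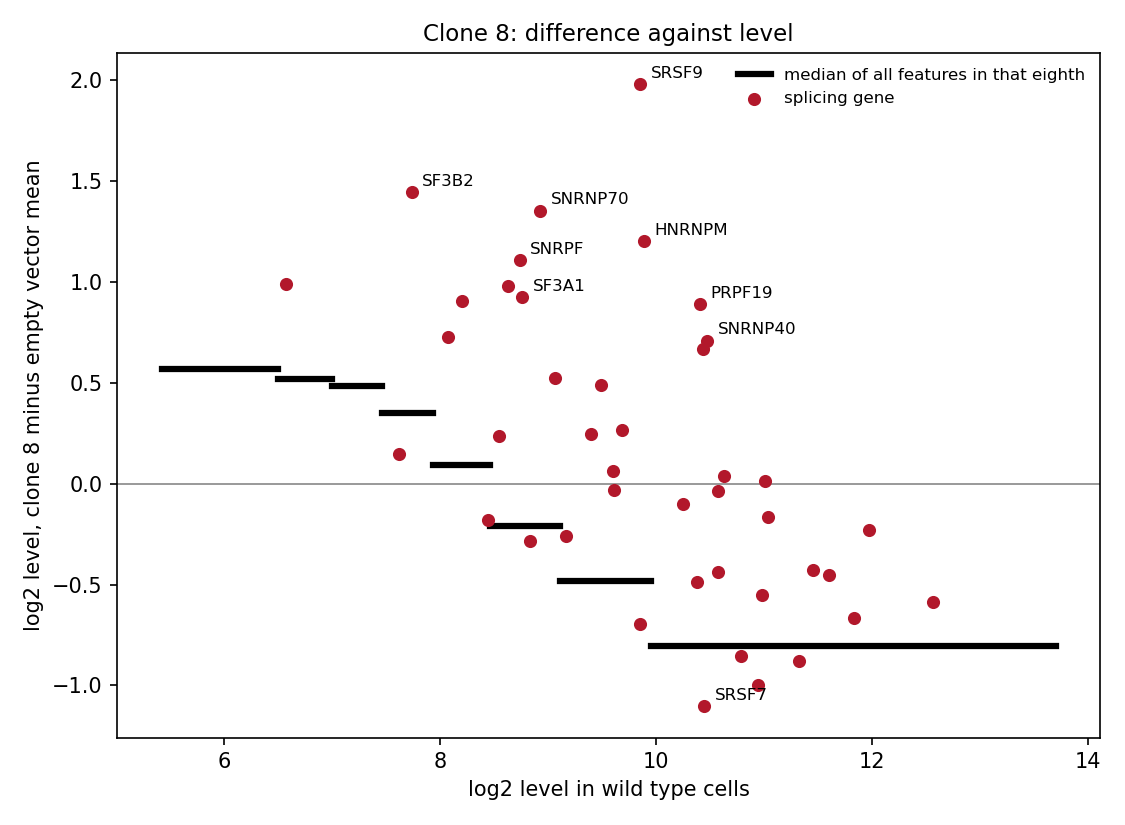
Difference of clone 8 from the mean of the empty vector clones (log2 units) against the level in wild type cells for each of the 42 splicing genes (points), with the median over all features in each eighth of wild type level (black bars). The bars fall with level, at 0.57 in the lowest eighth and -0.81 in the highest, and SRSF9 stands highest at 1.98.

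A wider list of 145 other splicing genes had 120 with a probe, of which 119 were tested. In the knockdown comparison with all clones 59 were higher and 60 lower, with a median of -0.0024, and 0 passed (0.0% of features). The lowest p on the higher side of these was that of PNN, a protein deposited near exon junctions, at 7.86 ± 0.52 in knockdown and 7.24 ± 0.26 in controls (SD, n = 4 each), and its adjusted p was 0.761 in limma. KHDRBS3, an RNA-binding regulator of alternative exons, was lower, at 7.94 ± 0.09 and 8.68 ± 0.41, a difference of -0.74 (SE 0.19, adjusted p = 0.761). Without clone 8 KHDRBS3 fell below the empty vector clones in V2LHS_62673 (-0.92, adjusted p = 0.0143), in clone 2 (-0.99, adjusted p = 0.0116) and in wild type cells (-0.75, adjusted p = 0.0343). It was the 1 gene of this list called for V2LHS_62673 (1.03% of features).

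In clone 2 without clone 8, 6 of the 119 rose and 4 fell (3.74% of features), and in wild type cells 9 rose and 3 fell (3.6%). Those that rose in clone 2 were PPIH and SNU13 of the tri-snRNP, MAGOH of the exon junction complex, the particle assembly factors GEMIN5 and WDR77, and RBM3, and those that fell were QKI, MBNL2, ESRP1 and KHDRBS3, which regulate alternative exons. In wild type cells PPIH, CWC15, SF3B5, MAGOH, EIF4A3, GEMIN5, WDR77, HNRNPL and NONO rose, and QKI, MBNL2 and KHDRBS3 fell. WDR77, a partner of the methylase that readies Sm proteins, was 0.72 above the empty vector clones in clone 2 (SE 0.12, adjusted p = 0.0121 in limma) and 0.77 above them in wild type cells (SE 0.12, adjusted p = 0.0128). MBNL2 was -0.74 in clone 2 (SE 0.16, adjusted p = 0.0334) and -1.21 in wild type cells (SE 0.16, adjusted p = 0.00775). Of 39 other tri-snRNP, Prp19 and catalytic genes, 37 were higher in clone 2, with a median of 0.25, and 34 in wild type cells, with a median of 0.19. Over all features these shares were 56.5% and 48.3%, with medians of 0.02 and -0.01. The same counts for the rest of the wider list are not given here. These 2 comparisons share the empty vector clones and rest on 1 clone and 1 wild type array, so the genes are not replicates of a shift. WDR77 read 9.55, 9.84 and 9.99 on the 3 arrays of clone 2, against 9.08, 9.15 and 8.99 in the empty vector clones. As in PRPF19, array 1 was the lowest of the 3, and all 3 lay above the empty vector clones. Between the constructs, WDR77 was 0.76 higher in clone 2 than in clones 9 and 12 (SE 0.13, adjusted p = 0.0179), and SF3B5, LSM2 and RBM3 also passed higher (2.15% of features).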

How the data were processed

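RNA of DLD-1 cells was measured on 10 arrays. The deposited values are 1 log2 level per probe for 22011 probes, and the log2 scale was read from their range. How the authors corrected background and normalized, and with which build and annotation, is not given in the sources used here. Raw intensities were not used here. Values were taken as deposited.

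A single symbol is annotated to 14432 probes, several to 2408, and no symbol to 5171. The probe with the highest mean stood for each gene. A mean below 5.95, the 25th percentile of all probes, led to exclusion, which left 11199 features, the shared LMNB1 and PCIF1 probe among them. Arrays of clone 2 were averaged. Differences were tested two-sided with limma 3.58.1 in R 4.3.3 (lmFit, eBayes) and Benjamini-Hochberg adjustment over all features, with a threshold of 0.05. Knockdown against control was fitted with 6 residual degrees of freedom, and the 4 groups with 4, or 3 without clone 8. The labels do not say whether samples of a group were grown separately beyond being single clones, so p-values measure the spread between these samples. The fit was tested on simulated data drawn with the spread of the empty vector clones alone. Over all features the median SD of those clones was 0.10, against 0.25 over the 8 samples with clone 8. That run therefore does not show what the fit can find in the real data with clone 8.

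The members and lists were chosen with earlier results of these data known. Named members were those whose groups did not overlap, the 3 with the smallest p in each comparison, and the 2 with the largest SD over the 8 samples, SRSF9 and SF3B2. SNRPB2, TRA2A, PRPF38A and others named beyond these were picked after their values were seen. Promoter sequences are from RefSeq, GRCh38.p14, where 37 of the 42 tested members matched by symbol. Alternatives were other scalings, filters, priors, array weights, blocks, controls and leaving out each clone or array. Cyclic loess, quantile normalization without clone 8, and leaving out arrays of clone 2 with clone 8 were added after seeing the data.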

Additional observations from a re-analysis of the deposited data

Results flagged for a closer look

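Among the 13 named members, 4 of 26 groups of 4 samples had a sample far from the rest. The usual chance rate of about 1 in 20 groups does not apply to this count, since all groups reuse the same 8 samples and SRSF9 and SF3B2 were chosen for their large SD over those samples, to which clone 8 contributes. Clone 8 was far above the other knockdown clones in HNRNPM (10.70), SRSF9 (11.84) and SF3B2 (8.97), and wild type cells were far above the empty vector clones in SF3B2 (7.74). Without clone 8, clone 2 differed from clones 9 and 12 of the other construct by 0.58 in PRPF19, 0.79 in SNRNP40 and 0.60 in SNRPC, by the contrast of the constructs in limma. Array 1 of clone 2 did not share these high levels. No cause was tested.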

How the results depend on the processing

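The count of members called in knockdown against control was 0 under every alternative run. In the other comparisons it was 0 with all clones and moved when clone 8 was left out or down-weighted. With array quality weights 1 member was called for V2LHS_62673, 2 for clone 2 and 3 for wild type cells, each against empty vector, and 3 between constructs. Quantile normalization without clone 8 left 2 for wild type cells and 0 elsewhere. Leaving out 1 clone or array gave 0 to 1, 0 to 2, 0 to 3 and 0 to 3 in the same order. Leaving out clone 8 together with 1 array of clone 2 gave 0 to 4 for clone 2 and 0 to 4 between constructs. The median member difference in knockdown was 0.08 as reported, 0.017 under median centring, 0.14 under cyclic loess and 0.030 to 0.11 with 1 clone or array left out. For V2LHS_62673 it was 0.08 as reported, 0.13 under quantile normalization, 0.0001 under median centring and 0.20 under cyclic loess. Between constructs it was -0.03 as reported, 0.062 under median centring, 0.026 with array weights, -0.15 under cyclic loess, -0.051 to 0.034 with 1 clone or array left out and -0.038 to 0.036 with clone 8 and 1 array of clone 2 left out. The cause was not tested.

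Small differences in knockdown changed sign, none of them called. With array weights they were -0.012 in SNRPD1, -0.22 in SNRNP40, 0.035 in SNRPB, 0.15 in SF3A3, -0.14 in SRSF9 and 0.11 in SNRNP48. Median centring gave -0.061 in SNRNP40. Quantile normalization without clone 8 gave -0.18 in SNRNP40, 0.042 in SNRPB, 0.11 in SF3A3, -0.089 in SRSF9 and 0.18 in SNRNP48. With empty vector clones alone as controls SF3A3 was 0.058 and SNRNP48 0.059, and without clone 8 as well SNRPB was 0.078, SF3A3 0.30, SRSF9 -0.078 and SNRNP48 0.28. Every array as a replicate gave 0.025 in SF3A3 and 0.080 in SNRNP48, and cyclic loess 0.011 and 0.0032. With 1 clone or array left out the range was -0.17 to 0.20 in SNRNP40, -0.28 to 0.076 in SNRPB, -0.22 to 0.14 in SF3A3, -0.078 to 0.66 in SRSF9 and -0.19 to 0.17 in SNRNP48. No such omission turned the sign of SNRPD1 (0.016 to 0.25), PRPF19 (0.020 to 0.37) or ZCRB1 (-0.24 to -0.032). With clone 8 and 1 array of clone 2 left out together, the range was -0.016 to 0.089 in SNRPD1, -0.019 to 0.083 in PRPF19, -0.066 to 0.003 in ZCRB1, -0.22 to -0.086 in SNRNP40, 0.043 to 0.13 in SNRPB, 0.14 to 0.16 in SF3A3, -0.13 to -0.0047 in SRSF9 and 0.17 to 0.18 in SNRNP48.

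Clone 2 arrays and empty vector clones share the numbers 1 to 3. Their deviations correlated at 0.03, -0.15 and -0.24 for equal numbers and at -0.08 to 0.23 for unequal ones. The highest value was thus between unequal numbers, and whether the numbers pair these arrays was not tested further. A replicate block on those 6 arrays called 3 members, PRPF19, SF3A1 and SF3A3, and 948 features. That fit counts the 3 arrays of the 1 clone as 3 replicates, so its p-values rest on the spread of repeat arrays and are too small for a comparison of clones.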

Other observations

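A further 7 members were read only by probes that also match other genes, and their signal cannot be assigned to 1 gene. The probe for SNRPD2, an Sm ring protein, is shared with SON, and read 9.14, 8.56, 8.47 and 9.12 in clones 8, 9, 12 and 2, against 9.15 in wild type cells and 8.63, 8.52 and 8.60 in the empty vector clones. On the arrays of clone 2 it read 8.61, 9.37 and 9.38, low on array 1 as PRPF19 was. The probe for SNRPD3, shared with GUCD1, read 9.25, 10.19 and 10.58 on those arrays, against 9.67, 9.51 and 9.74 in the empty vector clones. For the probe of SRSF2, shared with MIR636, clones 9, 12 and 2 read 11.40, 11.56 and 11.31, while clone 8 read 10.67. Wild type cells lay at 11.25 and the empty vector clones at 11.30, 11.27 and 11.25. The mean of clone 2 was thus barely above the highest control. Its arrays read 11.14, 11.35 and 11.43, the first of them below every control. The probe of HNRNPA1 with HNRNPA1P10 and HNRNPA1L2 was 8.47 in clone 8 and 7.25, 7.33 and 7.35 in clones 9, 12 and 2, against 7.47 in wild type cells and 7.13, 7.22 and 7.11 in the empty vector clones. The probes of SRSF5, HNRNPK and DDX39B had knockdown means within 0.28 log2 units of their control means. SNRPA1, below the filter, lay at 5.51 ± 0.18 in knockdown and 5.57 ± 0.28 in controls (SD, n = 4 each).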
